A study of Mus musculus with 2 samples.

Results

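The genes described here copy the nuclear genome in S phase: 46 genes for origin licensing, the replicative helicase, the DNA polymerases with their clamp and loader, nucleotide supply and chromatin assembly. They were taken as a list of symbols, each represented on the array by its brightest probe among those whose RefSeq accession names the gene. All 46 of 46 were found among 20887 named genes, and 45 (97.8%) were measured, meaning that the spot stood well above background, without saturation, on each array. Of all named genes, 14176 (67.9%) were measured.

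The cells were primary pericytes, mural cells of capillaries, cultured from the cavernous body of the penis of C57BL/6 mice. They were grown in medium with serum, antibiotics and pigment epithelium-derived factor, and exposed for 72 h to normal glucose (5 mmol on the label) or high glucose (30 mmol). Each condition is 1 Agilent 1-colour expression array, on which a pool of total RNA from 3 samples was hybridised. The comparison therefore sets 1 pool against 1 pool, has no replicate check and carries no p-value; an osmotic control was not analysed here.

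Replication is prepared in G1, when the origin recognition complex with Cdc6 and Cdt1 loads the MCM helicase onto origins, and geminin blocks reloading once S phase has begun. Cdc45 and the GINS complex then join the helicase, the polymerase alpha and primase complex starts each strand, and polymerases delta and epsilon extend it on the PCNA clamp. Many of these genes are transcribed from the end of G1 under the control of E2F factors, so as a group they are widely used as a sign of cells entering and passing S phase. Cultured pericytes divide, unlike most pericytes on a resting vessel. In a bulk RNA pool, fewer cells in S phase and less RNA per cell cannot be told apart.

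The processed signal is the spot brightness after the scanner software subtracted background. A log2 ratio is the difference of log2 signals, high minus normal glucose, after each array's 75th percentile over gene probes was subtracted (a signal of 774 in normal glucose and 733 in high). Equal expression after scaling thus corresponds to a slightly lower signal on the high glucose array. Signals of different probes are not comparable as expression levels, so each gene is compared only with itself.

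Replication genes were little different between the pools. The largest difference was in Pola1, the catalytic subunit of DNA polymerase alpha, which was 1.83-fold higher in high glucose. Cdc6, the helicase loading factor, was 1.27-fold and Tk1, the thymidine salvage kinase, 1.21-fold higher. With normexp background correction Cdc6 fell short of 1.2-fold (0.21 on the log2 scale), and so, narrowly, did Tk1 (0.263). Tk1 also fell short with median centring (0.22). No other member reached 1.2-fold in either direction on this scaling, and 42 of 45 lay within it, where 87.7% of all measured genes did. Prim1 passed it with the 75th percentile over detected probes and with cyclic loess (0.27 in each). Uhrf1 passed it with median spot pixels (0.28) and with normexp (0.265). With normexp 2 members were at least 1.2-fold higher, and 4 were in each of the other settings named for Prim1 and Uhrf1. The lowest ratio was that of Gins1, a GINS subunit, at -0.19 on the log2 scale.

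**Figure D1:**
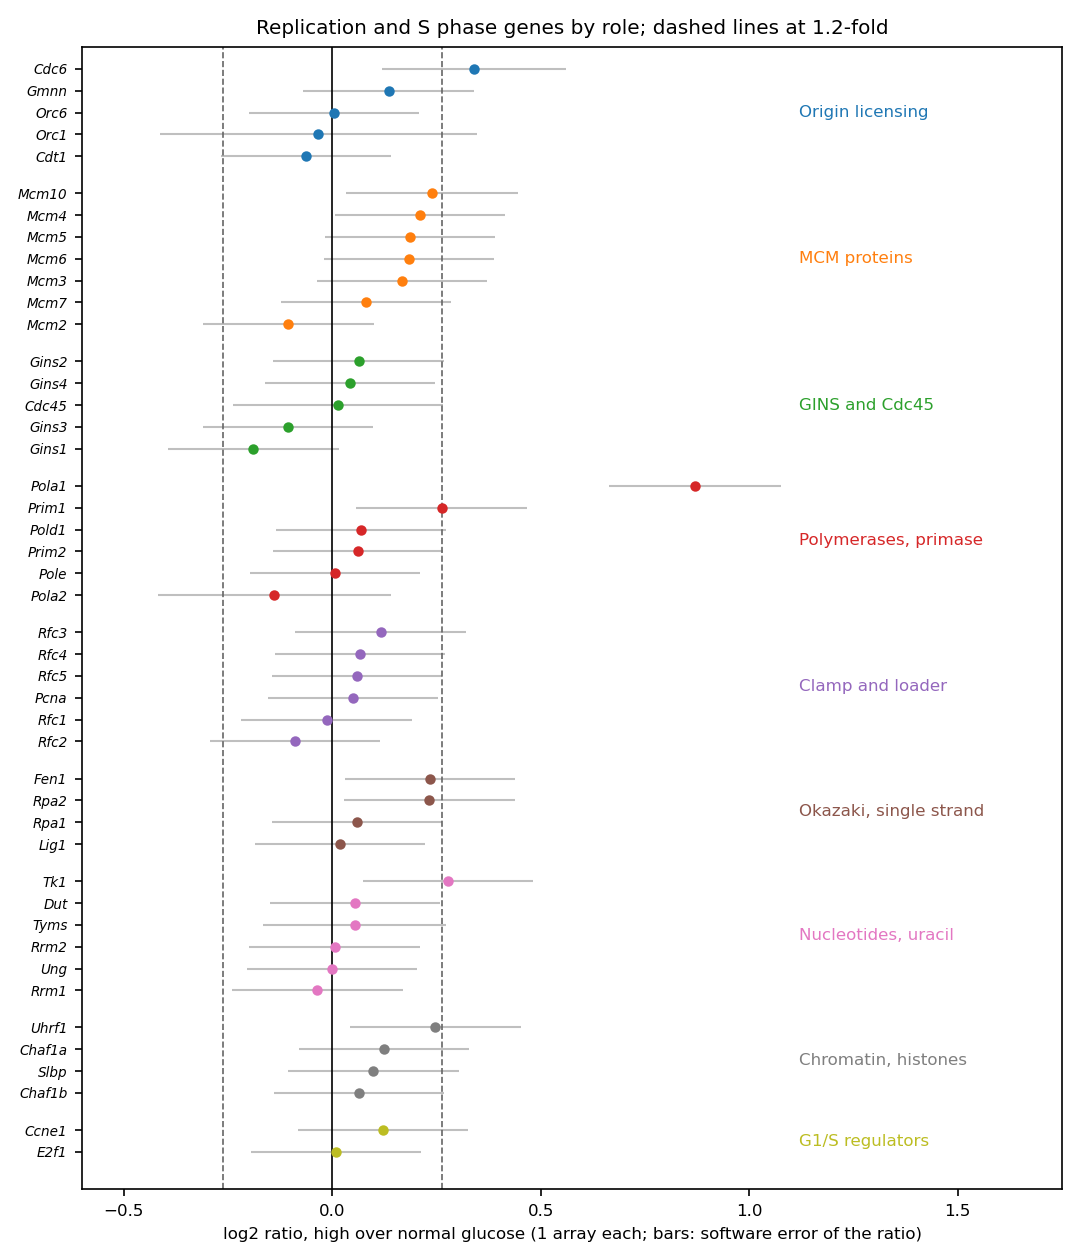
Log2 ratio of high over normal glucose (horizontal axis) for the 45 measured genes, grouped by role (colours). Points are 1 array against 1 array, grey bars are the scanner software's error of the ratio, and dashed lines mark 1.2-fold. Pola1 stands alone at 0.87, Cdc6 and Tk1 lie past the right dashed line, and no gene lies past the left one.

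By sign, 35 of 45 members (77.8%) had a positive ratio, where 46.8% of all measured genes did, and 10 had a negative one, where 53.2% of all genes did. Their median log2 ratio was 0.06, against -0.007 over all measured genes. With each array centred on its median instead, the member median was 0.000 with 23 of 45 positive, while that of all genes was -0.07 with 27.3% positive. In all, 5 scalings were tried: the 75th percentile over all probes, the same over detected probes, quantile normalization, median centring and cyclic loess. The percentile scalings and median centring differ only by an equal shift of every ratio. The distance between the median of the members and that of all genes is therefore fixed among them, at 0.068. Only quantile normalization and cyclic loess could change this distance, and it was at most 0.076 with them. A positive ratio under every one of the 5 was seen for 23 members (51.1%; 27.3% of all measured genes) and a negative one for 9 (20.0%; 49.5% of all). The positive counts equal those of median centring alone, so they are a single stricter cut and not 5 separate checks. The sign of the other 13 depended on the scaling.

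By fold size the members did not stand out on the higher side. At least 1.2-fold higher were 3 of 45 (6.67%), close to the 6.8% of all measured genes, and 0 were 1.2-fold lower, where 5.51% of all were. Only Pola1 reached 1.5-fold higher (1.62% of all genes), and 0 members reached 1.5-fold lower (1.19% of all). None reached 2-fold higher or lower, where 0.501% and 0.416% of all genes did. Over the 27 members brighter than the median measured gene (signal 1593), 21 had a positive ratio (77.8%), where 44.9% of the 7088 genes of that brightness did.

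Measurement error comes from the scans alone. The scanner software's error of a member's log2 ratio ran from 0.20 to 0.38, with a median of 0.20. Their own error was exceeded by 9 of the 45 ratios, all positive: Pola1, Cdc6, Tk1, Prim1, Uhrf1, Mcm10, Fen1, Rpa2 and Mcm4. That is 20.0% of members, where 8.37% of all measured genes were higher and 7.24% lower by more than that error. Repeat spots mostly give a smaller error: among 283 probes printed 10 times, the log2 ratios of the spots of a probe had a median SD of 0.046. In 4 bands of rising brightness this SD was 0.29 (median signal 72.4), 0.10 (291), 0.044 (1847) and 0.032 (13374). Neither measure includes the spread between cultures. In the dimmest band lay 3 measured members, Orc1, Cdc45 and Pola2. For Cdc45 (0.25) and Pola2 (0.28) the software error was below the repeat-spot SD of that band.

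**Figure D2:**
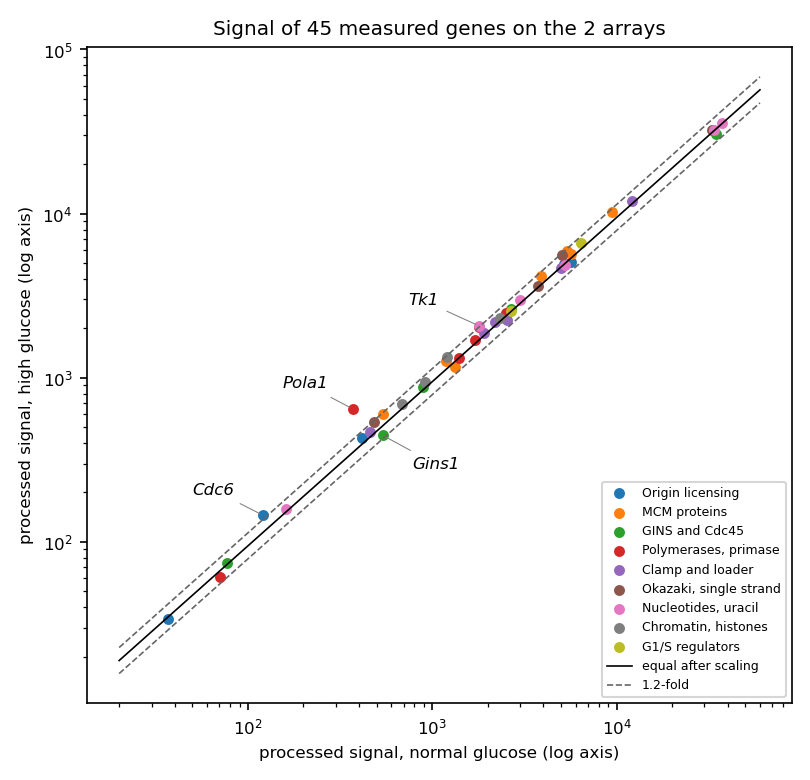
Processed signal in normal glucose (horizontal, log axis) against high glucose (vertical, log axis) for the 45 measured genes, 1 point each, coloured by role. The solid line marks equal expression after scaling and the dashed lines 1.2-fold; Pola1 lies clearly above the band, Cdc6 and Tk1 just above it, and Gins1 toward its lower edge.

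Of 59305 gene spots, 56.3% on the normal and 57.6% on the high glucose array stood well above background, and 0 were saturated. None of the members' spots carried an outlier flag. Against the label, 10 of 12 pericyte markers were measured, among them Pdgfrb (signal 17471 in normal glucose and 18161 in high) and Cspg4 (9453 and 7760), while Rgs5 was dim (93.9 and 133) and Kcnj8 not well above background. Of markers of other cells, 9 of 9 smooth muscle, 9 of 11 fibroblast, 5 of 10 endothelial, 9 of 10 immune, 4 of 7 epithelial, 6 of 7 Schwann cell and 2 of 5 adipocyte genes were measured. Cdh5, Epcam and Adipoq were not well above background, Pecam1 (84.6 and 90.0) and Ptprc (39.1 and 42.5) were dim, and Sox10 had 348 and 319. Other genes of these lists were brighter, such as Itgam (21959 and 22557) and Csf1r (4682 and 4820) of the immune list. Kdr (7379 and 7075) of the endothelial list and Fabp4 (12227 and 13896) of the adipocyte list were bright too. The smooth muscle and fibroblast genes Acta2 (280786 and 270157) and Pdgfra (3678 and 3314) were measured too, so the markers do not single out pericytes. Of the 10 measured pericyte markers, 4 had a positive ratio, with a median of -0.12, and their list summed to an unscaled signal of 118806 in normal glucose and 109009 in high. Positive ratios were seen in 46.8% of all measured genes. They were seen for 8 of 9 measured immune, 8 of 9 smooth muscle and 3 of 4 epithelial genes. Of the other lists, 3 of 5 endothelial, 2 of 9 fibroblast, 1 of 6 Schwann cell and 1 of 2 adipocyte genes had one. Unscaled signals summed over each list in normal and high glucose were 33031 and 34273 for immune, 653183 and 631678 for smooth muscle, 802 and 777 for epithelial, 14012 and 13327 for endothelial, 787465 and 754621 for fibroblast, 5598 and 5182 for Schwann cell and 12599 and 14186 for adipocyte genes. These sums include unmeasured genes, and equal expression gives a slightly lower sum on the high glucose array. Single bright genes weigh most, such as S100a4 with 428542 of the fibroblast sum in normal glucose. The part of other cell types in the results was not tested.

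Among the genes that license origins, Cdc6 differed most. This ATPase loads the MCM helicase together with Cdt1. Its signal was 121 in normal glucose and 145 in high, a log2 ratio of 0.34 ± 0.22 (software error), or 0.21 and below 1.2-fold with normexp. A second, dimmer Cdc6 probe gave signals of 45.8 and 56.6 and a ratio of 0.38, so both probes were higher on the high glucose array. Dim spots around the brighter probe were shifted by 0.74 in the same direction and bright ones by -0.02, and over all members the dim neighbours ran from -0.92 (Rpa1) to 1.26 (Gmnn); their part in the ratio was not tested. Cdt1, its partner, went slightly the other way, from 5629 to 5096, at -0.06. Orc1, the largest origin recognition subunit, was dim, with 36.7 and 33.9 and a ratio of -0.03; Orc6, another subunit, had 0.003. Gmnn (geminin), the inhibitor of Cdt1, had 0.13. The median of the 5 genes was 0.003, and it was -0.001 with quantile normalization and -0.06 with median centring, so licensing genes as a group had no settled direction.

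The MCM genes were mostly on the positive side. Mcm2 to Mcm7 encode the 6 subunits of the ring-shaped helicase, and Mcm10 a separate factor that helps activate it. Of these 7 genes, 6 (85.7%) had a positive ratio under all 5 scalings, where 27.3% of all measured genes did. The median of the 7 was 0.18, or 0.12 with median centring. Mcm10 was highest, with signals of 542 and 605 and a ratio of 0.24 ± 0.21. Within the ring, Mcm4 had 0.21, Mcm5 0.19, Mcm6 0.18, Mcm3 0.17 and Mcm7 0.08. Mcm2 was the exception, at 1326 in normal glucose and 1166 in high, with a ratio of -0.11 that was negative under all 5 scalings. Each of these 7 genes had 1 probe, and none differed by 1.2-fold.

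The partners that turn the ring into an active helicase had ratios on both sides of 0. Gins1 to Gins4 encode the 4 GINS subunits, which bind the ring together with Cdc45. Gins2 was highest, at 888 in normal glucose and 878 in high, with a ratio of 0.06, and Gins4 had 0.04. Gins1 was lowest, with 538 and 446 and a ratio of -0.19 ± 0.20, and Gins3 had -0.11. Both were negative under all 5 scalings, as 49.5% of all measured genes were. Cdc45 was dim, at 77.4 and 73.9, with a ratio of 0.01. The median of the 5 genes was 0.01, and it was negative with quantile normalization (-0.03), median centring (-0.05) and cyclic loess (-0.02).

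Polymerase and primase genes held the largest difference of the whole list. Pola1 had a signal of 372 in normal glucose and 644 in high, a log2 ratio of 0.87 ± 0.21, on probe A_51_P415905. The ratio from median spot pixels was 0.84, and surrounding bright spots were shifted by 0.03 and surrounding dim spots by 0.07. Pola1 has no second named probe on the array, so the difference rests on 1 spot per condition. The other subunits of its complex did not follow it to the same size. Prim1, the catalytic primase subunit, had 1791 and 2032 and a ratio of 0.26, just inside 1.2-fold, and Prim2, the large primase subunit, had 0.06. Pola2, the regulatory subunit of polymerase alpha, was lowest, with dim signals of 70.7 and 60.7 and a ratio of -0.14 ± 0.28. Of the elongating enzymes, Pold1 (polymerase delta) had 0.07 and Pole (polymerase epsilon) 0.007. The median of the 6 genes was 0.07, and 0.004 with median centring.

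Sliding clamp genes were close to equal. Pcna, the clamp that holds polymerases on DNA and a classical marker of S phase, had a signal of 12150 in normal glucose and 11897 in high, with a ratio of 0.05, or -0.01 with median centring. Rfc1 to Rfc5 encode the loader that opens the clamp. Rfc3 was highest, with 458 and 469 and a ratio of 0.12, and Rfc2 lowest, with 2542 and 2261 and -0.09. Rfc4 had 0.07, Rfc5 0.06 and Rfc1 -0.01. The spread over these 6 genes was small (SD 0.072), and their median of 0.05 became -0.006 with median centring.

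Fen1 and Rpa2 led the genes for Okazaki fragments and single-stranded DNA. Fen1 is the nuclease that trims the flap of each fragment; its signal was 5046 in normal glucose and 5619 in high, with a ratio of 0.24 ± 0.20. Lig1, the ligase that then seals the nick, was lowest, with 3756 and 3599 and 0.02. Rpa2, a subunit of the single-strand binding protein RPA, had 0.23 and its larger partner Rpa1 0.06. All 4 ratios were positive, where 46.8% of all measured genes were. Those of Lig1 and Rpa1 turned to -0.04 and -0.001 with median centring. The median of the 4 was 0.15, or 0.09 with median centring.

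Nucleotide supply genes were near 0 apart from Tk1. Tk1, which phosphorylates salvaged thymidine and peaks in S phase, had a signal of 1802 in normal glucose and 2066 in high, a ratio of 0.28 ± 0.20. This ratio was below 1.2-fold with median centring (0.22) and, narrowly, with normexp (0.263). Rrm1, the large subunit of ribonucleotide reductase, was lowest, with 5264 and 4859 and a ratio of -0.04, and its partner Rrm2 had 0.005. Tyms, thymidylate synthase, had 0.05, and Dut, the dUTPase that keeps uracil out of DNA, 0.05. Ung, the glycosylase that removes uracil, had -0.001. The median of these 6 genes was 0.03, and -0.03 with median centring.

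Chromatin genes were all on the positive side. Uhrf1, which recruits the maintenance DNA methyltransferase to newly copied DNA, was highest, at 1198 in normal glucose and 1345 in high, with a ratio of 0.25 ± 0.20. The chromatin assembly factor subunits Chaf1a and Chaf1b, which deposit histones behind the fork, had 0.12 and 0.06. Slbp, the histone mRNA stem-loop binding protein, had 0.10 and, on its second probe, 0.19. All 4 ratios stayed positive under all 5 scalings, where 27.3% of all measured genes did. The median of the 4 was 0.11, or 0.05 with median centring. Chaf1b, the lowest, had 2337 and 2312 on its brightest probe but 1158 and 1066 on the second, a ratio of -0.04, so its probes differed in sign.

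The G1/S regulators in the list were close to equal. Ccne1, cyclin E1, which activates Cdk2 at S phase entry, had a signal of 6429 in normal glucose and 6623 in high, with a ratio of 0.12 and 0.17 on its second probe. E2f1, the founding activator of the E2F family, had 2678 and 2548 and a ratio of 0.009, or -0.05 with median centring. Ccne2, cyclin E2, lay near background on both arrays (signals 5.36 and 5.31, not well above it), and no ratio is given for it.

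More than 1 named probe was present for 7 of the 46 genes and absent for 39. In 5 of the 7 a second probe was measured, and 4 of these 5 pairs shared a sign: Ccne1, Cdc6, Rfc4 (0.07 and 0.05) and Slbp. Chaf1b was the exception. The median absolute difference between the 2 probes of a gene was 0.048 over these 5 pairs. Second probes of Pole and Uhrf1 were not well above background. Ratios recomputed from median spot pixels had the same sign as the processed ones for 42 of 45 members.

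Promoter windows bear on the control of these genes by E2F factors and show what some of them share. RefSeq promoter windows (assembly GRCm38.p6, 250 bases before to 50 after the transcription start) were found for 37 of 46 members. They were searched on both strands for the E2F-type letters TTTGGCGC, TTTCGCGC, TTTCCCGC and TTTGCCGC, overlapping matches being counted separately. Of these 37 genes, 13 (35.1%) held a match, where 704 of 27025 genes (2.6%) did: Orc1, Cdc6, Cdt1, Mcm3, Mcm5, Mcm6, Mcm7, Gins3, Pola1, Pold1, Rfc3, Lig1 and Uhrf1. The letters CCAAT were held by 22 of 37 (59.5%) and by 41.1% of all genes. Of the further replication genes described below, 39.2% of those with a window held E2F-type letters and 58.8% CCAAT. For the mitotic genes, also described below, these shares were 10.8% and 73%. A match is a description and does not show that a factor binds.

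The windows shown are those of the 2 members with the largest ratios, 3 others on the positive side and 2 with negative ratios, each 40 bases written 5′ to 3′ on the gene's strand, with the matching letters in capitals.
Pola1: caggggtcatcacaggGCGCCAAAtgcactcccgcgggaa
Cdc6: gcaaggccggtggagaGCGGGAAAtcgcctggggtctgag
Uhrf1: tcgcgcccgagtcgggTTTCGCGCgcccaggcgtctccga
Mcm5: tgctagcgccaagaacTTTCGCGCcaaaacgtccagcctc
Mcm6: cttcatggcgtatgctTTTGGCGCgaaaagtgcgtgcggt
Orc1: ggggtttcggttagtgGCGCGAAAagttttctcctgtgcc
Gins3: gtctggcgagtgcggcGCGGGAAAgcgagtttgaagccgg
They lie at chrX:93632270-93632309 on the minus strand for Pola1, chr11:98907997-98908036 on the plus strand for Cdc6, chr17:56304112-56304151 on the plus strand for Uhrf1 and chr8:75109340-75109379 on the plus strand for Mcm5. Those of Mcm6, Orc1 and Gins3 are chr1:128359792-128359831 (minus strand), chr4:108579411-108579450 (plus strand) and chr8:95633502-95633541 (plus strand). The match begins 138 bases before the start in both Pola1 and Cdc6, 27 before it in Orc1 and 41 before it in Gins3. In Mcm5 and Mcm6 a second match on the opposite strand overlaps the one in capitals. Letters of this kind did not go with 1 direction: the 13 members that held them had a median ratio of 0.12, from -0.11 for Gins3 to 0.87 for Pola1, with 10 positive, and the 24 without them a median of 0.06, from -0.14 to 0.28, with 19 positive.

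Further genes of replication, its checkpoint and G1/S control, 63 in all, gave a wider spread around a similar centre. Of the 59 measured, 39 (66.1%, against 46.8% of all measured genes) had a positive ratio, with a median of 0.08 (0.01 with median centring). Under all 5 scalings 31 (52.5%, against 27.3%) were positive and 19 (32.2%, against 49.5%) negative. At least 1.2-fold higher were 9 (15.3%, against 6.8% of all measured genes). At least 1.2-fold lower were 3 of 59, where 5.51% of all measured genes were. Among the highest were Blm, a helicase of recombination repair, with signals of 196 and 271 (log2 ratio 0.55), and Clspn (claspin), a checkpoint mediator, with dim signals of 48.2 and 63.6 (0.48). Among the lowest were Dctd, deoxycytidylate deaminase of the thymidylate pathway, with 448 and 209 (-1.02), and Recql4, an origin-associated helicase, with 275 and 187 (-0.48). Ccna2 (cyclin A2) and Dnmt1, the maintenance methyltransferase, both had 0.29, and Cdk2, the kinase partner of cyclins E and A, had -0.11.

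Mitotic genes lay higher than replication genes on the same arrays. Of 40 measured of 44, 37 (92.5%) had a positive ratio, against 46.8% of all measured genes. All 37 stayed positive under all 5 scalings, where 27.3% of all measured genes did. At least 1.2-fold higher were 17 (42.5%), against 6.8% of all measured genes and 3 of 45 replication genes. The mitotic median was 0.25, or 0.18 with median centring, against 0.06 and 0.000 for replication genes. Kif18a, a kinesin, had 0.48, Nuf2 of the kinetochore 0.44 and Nusap1, a spindle protein, 0.34; lowest were Kif11 at -0.06, Tpx2 at -0.03 and Pttg1 (securin) at -0.03. Mki67, a marker of all cycling phases, had 3027 in normal glucose and 3564 in high (0.32), and Top2a 508 and 587 (0.29). With 1 array per condition the difference between these lists was not tested.

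**Figure D3:**
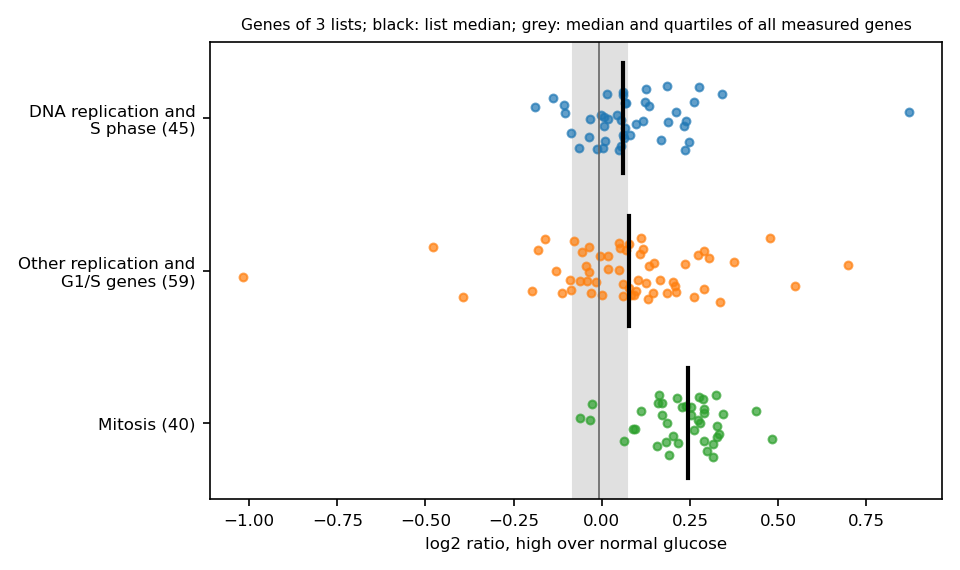
Log2 ratio of high over normal glucose (horizontal axis) for each measured gene of 3 lists, 1 point per gene, spread vertically for legibility. Black bars are list medians (0.06, 0.08 and 0.25 from top to bottom); the grey line and band are the median and quartiles of all measured genes, and the mitotic points lie mostly to the right of the band.

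**Figure D4:**
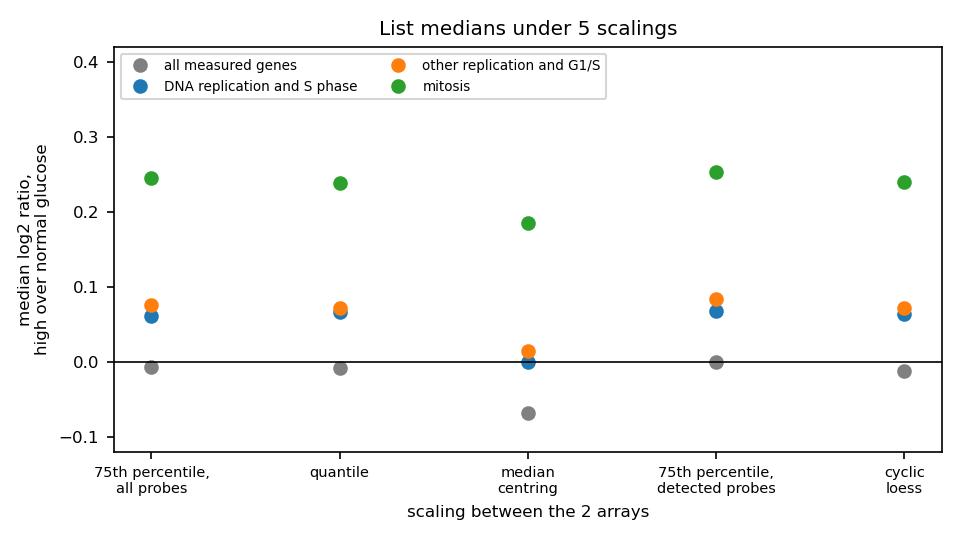
Median log2 ratio (vertical axis) of the 3 lists and of all measured genes under 5 ways of scaling the arrays (horizontal axis), 1 point per list and scaling. Median centring moves all 4 medians down together. The replication genes lie above all measured genes and below the mitotic genes under each scaling. Only quantile normalization and cyclic loess could change this order, since the other scalings shift every ratio equally.

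Genes that hold back S phase entry were divided. Of 10 CDK inhibitors and retinoblastoma family genes, 5 had a positive and 5 a negative ratio, with a median of -0.04 (-0.11 with median centring). Under all 5 scalings 2 were positive (20%, against 27.3% of all measured genes). Negative under all 5 were 5 (50%, against 49.5% of all measured genes). Cdkn2a, the p16 and ARF locus, was lowest, with 82823 in normal glucose and 64235 in high (-0.29), followed by Cdkn1a (p21) at -0.22 and Cdkn2b (p15) at -0.13. Highest were Cdkn2d (p19) at 0.23 and Cdkn2c (p18) at 0.19, then Cdkn1b (p27) at 0.06, or -0.002 with median centring. Rb1 and Rbl1, which restrain E2F factors, had 0.0002 and -0.09.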

How the data were processed

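Each of the 2 arrays (1 per condition, RNA of 3 samples pooled) was deposited as a scanner file. Version 11.5.1.1 of Feature Extraction produced the deposited intensity values per the file headers, while version 9.3.2.1 is the one in the submitters' processing notes; which was used cannot be told from them. Processed signals had background subtracted and trends within the array removed, with no scaling between arrays. The same files hold the software's 0 or 1 flags and error estimates. Linear intensity also fills the authors' deposited table of values: 99.8% of 55681 probes equalled the mean processed signal within a relative tolerance of 0.0001, with column medians of 49.6 in normal and 48.9 in high glucose.

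From these, 59305 gene spots were used and 3671 control spots left out. Spots of a probe were averaged on the log2 scale and each array's 75th percentile subtracted. A probe was measured if at least 0.5 of its spots on each array were well above background without saturation. RefSeq accessions without versions named 27509 of 55681 probes (GRCm38.p6 table; the design names mm9, so array positions are not printed). The members, gene lists and role groups were chosen with earlier results of these data known. Values on both arrays are given for members past 1.2-fold, the highest and lowest of each role, unmeasured members and members whose probes differ in sign, and the ratio for every measured member; in the other lists, for the 3 highest and 3 lowest and a few preset genes, of which 2 are not reported here. No test was run, since each condition has 1 array. Counting steps were tested on simulated data at 2-fold only, and not for 1.2-fold counts or signs. Neighbour shifts are median log2 ratios of spots within 5 rows and columns (well above background) or 2 (dim, from median pixels), less the array's. Python 3.11.15, pandas 2.3.3 and statsmodels 0.14.6 were used, and limma 3.58.1 for the normexp alternative, on median spot signals with an offset of 50.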

Additional observations from a re-analysis of the deposited data

How the results depend on the processing

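No paired analysis was possible because each condition has 1 array, and for the same reason no replicate could be left out. Over 13 alternatives, 1 of them (a local position trend removed) chosen after seeing the data, the member median of 0.06 stayed between 0.053 and 0.068 except with median centring (0.000, 23 of 45 positive) and on the second brightest measured probes, which only 5 members have (0.171, with 4 positive, 1 at least 1.2-fold and 0 at least 1.5-fold higher). Among the 27 members brighter than the median measured gene, fewer genes being counted, 21 were positive, 1 was at least 1.2-fold and 0 were at least 1.5-fold higher; Pola1 and Cdc6 are dimmer than that gene. Under the alternatives that include it, the Pola1 ratio ran from 0.758 (normexp) to 0.878 and that of Cdc6 from 0.214 (normexp, below 1.2-fold) to 0.384. Of 829 values for role groups, comparison lists and single members, 721 moved by no more than the spot error, or 1.5 times for counts, and 0 members past 1.2-fold turned direction. The normexp alternative used median spot signals because mean spot signals were not used here. Within their software error lay 36 of 45 ratios, those of bright genes such as Pcna, Rrm2 and Rpa1 included. Repeat spots as bright as these 3 genes had a smaller SD of 0.032. Neither error covers the spread between cultures.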
